A study of Mus musculus with 2 samples.

Results

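The cells described here were the few splenic CD11b+ Gr1+ cells rich in transcripts of the primary (azurophil) granule proteases. A cell entered the gate when Mpo, Elane, Prtn3 and Ctsg together made up at least 0.1% of its unique molecular identifiers (UMIs, each counting 1 captured mRNA molecule) and at least 5 UMIs, and when Cd79a and Cd79b, the B cell receptor signalling chains, together had fewer than 2 UMIs. In all 82 of 14646 deposited cells passed. The Wild Type library gave 40 of 5491 cells (0.728%, exact Clopper-Pearson 95% interval 0.521 to 0.991) and the PyMT library 42 of 9155 cells (0.459%, interval 0.331 to 0.620). The measured levels of these 4 genes chose the cells, so their levels and the shares are descriptions. Each library was set against its own comparison cells, those outside the gate with S100a8 and S100a9 at 10% or more of UMIs: 4348 Wild Type cells (79.2% of the library) and 5906 PyMT cells (64.5%).

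Spleens of FVB/n control mice (5 mice pooled, labelled Wild Type) and of tumour-bearing PyMT mice (3 mice pooled, strain given only as PYMT) were sorted for CD11b+ Gr1+ viable cells and sequenced as 1 droplet 3′ library each. PyMT names mice carrying the polyoma middle T oncogene; the labels used here give neither its promoter nor the age of the mice. With 1 library per group no test of the group difference was possible, and every interval below covers counting error only, not the spread between mice. The Wild Type library held 42542700 UMIs with a median of 5668 per cell, the PyMT library 73435307 with a median of 7063, and 72 cell barcodes occurred in both libraries.

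Granulocyte-monocyte progenitors are bone marrow cells that give rise to neutrophils and monocytes. The azurophil granule genes are expressed in these progenitors and through the promyelocyte stage. Mpo encodes myeloperoxidase, and Elane, Prtn3 and Ctsg encode the serine proteases neutrophil elastase, proteinase 3 and cathepsin G. These transcripts are shut off again before the secondary granule proteins (Ltf, Camp, Ngp, Lcn2) and then the gelatinase granule proteins (Mmp8, Mmp9) are made, so the transcripts a cell carries mark how far it has gone along this path. Ms4a3 encodes a membrane protein of granulocyte-monocyte progenitors, and Prss57 encodes a further azurophil granule protease.

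Of the 6 marker genes, 5 had a promoter sequence in the RefSeq table used here (build GRCm38.p6), and these are shown because they drive the transcripts by which the cells are recognised. Each run holds the 150 bases before the annotated transcript start and the first 10 bases from it, 5′ to 3′ on the gene's own strand. Capitals mark matches on either strand to GAGGAA (the core bound by PU.1), TGTGGT (RUNX) or AACNG (MYB), where a match on the opposite strand appears as its complement read backwards. Elane and Prtn3 lie beside each other on chromosome 10, with Prss57 (chr10:79781474-79794684) on the same chromosome. Mpo is at chr11:87793634-87793793 on the plus strand, Elane at chr10:79886162-79886321 on the plus strand, Prtn3 at chr10:79879517-79879676 on the plus strand, Ctsg at chr14:56102565-56102724 on the minus strand and Ms4a3 at chr19:11640842-11641001 on the minus strand.
Mpo: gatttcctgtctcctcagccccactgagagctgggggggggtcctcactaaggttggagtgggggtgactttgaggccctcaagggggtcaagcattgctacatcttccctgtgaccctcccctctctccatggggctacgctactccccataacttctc
Elane: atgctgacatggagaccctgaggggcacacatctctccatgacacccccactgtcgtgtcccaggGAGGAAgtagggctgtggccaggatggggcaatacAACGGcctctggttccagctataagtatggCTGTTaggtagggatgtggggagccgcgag
Prtn3: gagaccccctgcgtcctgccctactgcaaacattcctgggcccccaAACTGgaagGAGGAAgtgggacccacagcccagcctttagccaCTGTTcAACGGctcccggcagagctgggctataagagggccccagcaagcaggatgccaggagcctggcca
Ctsg: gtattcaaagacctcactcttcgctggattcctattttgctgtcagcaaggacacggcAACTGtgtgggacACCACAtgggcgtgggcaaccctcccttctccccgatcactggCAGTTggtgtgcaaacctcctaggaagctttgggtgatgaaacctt
Ms4a3: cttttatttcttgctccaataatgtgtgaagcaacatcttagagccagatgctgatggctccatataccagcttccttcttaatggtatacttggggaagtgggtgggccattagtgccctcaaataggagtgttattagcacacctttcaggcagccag

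GAGGAA occurred upstream of Elane and Prtn3, 2 of the 5, against 15.39% of 27025 promoter windows of the same length. AACNG occurred in 3 of the 5, at Elane, Prtn3 and Ctsg, against 57.74% of windows, and TGTGGT in 1 of the 5, at Ctsg, against 9.036%. The C/EBP core TTGCNNAA, held by 5.787% of windows, was in 0 of the 5. The Mpo and Ms4a3 windows held 0 matches to the 4 motifs. A match describes the letters only, and the absence of one says nothing about a factor.

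**Figure D1:**
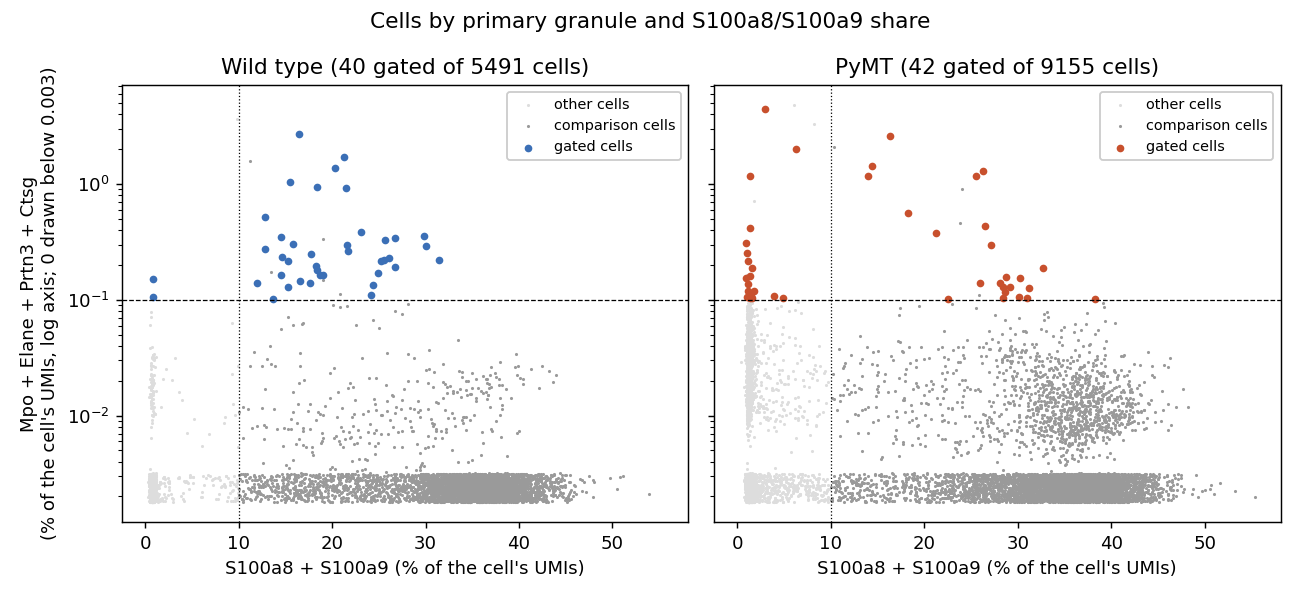
Each point is 1 cell of the Wild Type (left) or PyMT (right) library, with its share of S100a8 and S100a9 UMIs (percent, x axis) and of Mpo, Elane, Prtn3 and Ctsg UMIs (percent, log y axis, cells at 0 spread below 0.003); coloured points are gated cells, dark grey comparison cells and light grey all others, and points above the dashed 0.1% line that are not coloured failed another condition of the gate. Of the gated cells 38 of 40 in Wild Type and 23 of 42 in PyMT lie right of the dotted 10% line.

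The 4-gene share rose without a gap through the threshold. In Wild Type the gated cells ran from 0.102% through a median of 0.226% to 2.73%, and the nearest cell outside was at 0.0880%. In PyMT they ran from 0.102% through a median of 0.154% to 4.43%; outside, 2 cells at 0.112% and 0.111% lacked the 5 UMIs and the next was at 0.0995%. Of the PyMT cells 20 of 42 lay between 0.1% and 0.15%, against 8 of 40 in Wild Type. At 1% or more there were 4 Wild Type cells (0.0728% of the library) and 8 PyMT cells (0.0874%), so the order of the libraries turned with the threshold; it also turned when every cell was thinned to 2500 UMIs and the required UMIs of the 4 genes were lowered from 5 to 3 together, where the PyMT share was 0.907% and 0.233 percentage points above Wild Type. Just below it, between 0.05% and 0.1%, lay 18 Wild Type but 172 PyMT cells. Of those 172 PyMT cells 137 had S100a8 and S100a9 below 10%, 129 had UMIs of both Ccr2 and F13a1, monocyte genes, and 88.3% of their 4-gene UMIs were Prtn3. A further 6 Wild Type and 7 PyMT cells passed the 4-gene thresholds and failed the Cd79a and Cd79b condition.

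Summed over the gated cells, the 4 genes reached 4577 CPM (UMIs of the gene scaled to a common total of all UMIs; exact Poisson 95% interval 4434 to 4724) in Wild Type and 5945 (5780 to 6114) in PyMT. The comparison cells were at 44.1 and 67.8 CPM. Cells with at least 5 UMIs of Cd79a and Cd79b, below 10% S100a8 and S100a9 and outside the gate (380 Wild Type, 1228 PyMT) served as B reference cells, which should not express these genes. They held 10.8 and 20.6 CPM, taken here as the level of free RNA. Doublets among them were not removed and may add to it.

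Elane gave 52.2% of the 4-gene UMIs in Wild Type gated cells and 38.5% in PyMT. Per cell its lowest, median and highest levels were 350, 1293 and 17278 CPM in Wild Type (a UMI in 40 of 40 cells) and 0, 509 and 17302 in PyMT (38 of 42). Prtn3 was found in every gated cell of both libraries, at 151, 918 and 5204 CPM in Wild Type and 83.3, 1105 and 7646 in PyMT. The ranges of both proteases overlapped almost wholly between the libraries.

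Mpo was at 0, 127 and 4059 CPM in Wild Type (31 of 40 cells) and 0, 74.0 and 14830 in PyMT (26 of 42). Ctsg was the least often found, at 0, 31.9 and 1129 CPM in Wild Type (21 of 40) and 0, 0 and 4482 in PyMT (19 of 42). The higher PyMT sums of Mpo (1320 against 538 CPM) and Ctsg (406 against 115) rested on few cells: 1 PyMT cell held 41.2% of the Mpo and 40.5% of the Ctsg UMIs. That cell had 30343 UMIs, of which 450 were Mpo, 525 Elane, 232 Prtn3, 136 Ctsg, 78 Ms4a3 and 18 Prss57, with 2 of Kit and 1 of Cd34, 27 of Camp and an S100a8 and S100a9 share of 2.93%. The Wild Type cell with the highest share had 19215 UMIs, with 78, 332, 100 and 15 of the 4 genes, and differed in carrying 1071 UMIs of Camp and 16.4% S100a8 and S100a9.

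The label of granulocyte-monocyte progenitor was checked against these data, and they went against it for most of the cells. Ms4a3 and Prss57, which the gate did not use, were high. However, Cd34 had a UMI in 1 of 40 Wild Type and 2 of 42 PyMT cells, and Kit, the stem cell factor receptor, in 9 of 40 and 1 of 42. Camp, a secondary granule gene, had 200 or more UMIs in 37 of 40 Wild Type and 20 of 42 PyMT cells. In Wild Type 38 of 40 and in PyMT 23 of 42 carried 10% or more S100a8 and S100a9. The remaining 19 PyMT cells were at 0.957% to 6.29% S100a8 and S100a9 (median 1.34%, where B reference cells had a median of 1.40%), and 16 of the 19 had UMIs of both Ccr2 and F13a1. The cells are therefore called primary granule gene-high cells, or gated cells, below.

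**Figure D2:**
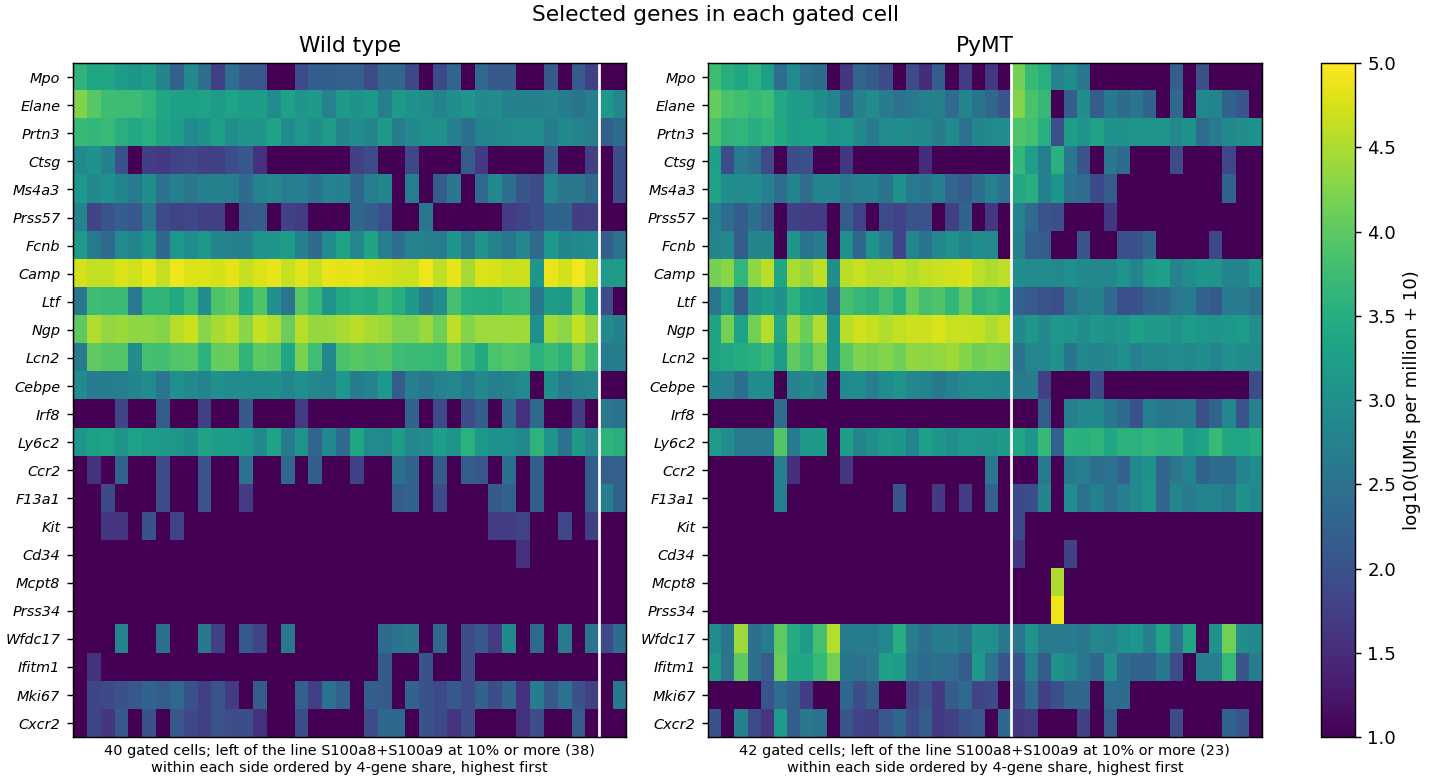
Heat map of 24 genes (rows) in each gated cell (columns) of the Wild Type and PyMT libraries, coloured by the log10 of CPM + 10, with cells at 10% or more S100a8 and S100a9 left of the white line and each side ordered by 4-gene share. Camp is high in nearly all columns left of the line, and the 19 PyMT columns right of it carry Irf8 (16 of 19), Ccr2 (16 of 19) and F13a1 (18 of 19).

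The gated cells were deep. Their median was 20769 UMIs in Wild Type and 19101.5 in PyMT, against 5820 and 8380 in comparison cells and 4016 and 3556.5 in B reference cells; 39 of 40 and 35 of 42 had at least 10000 UMIs. The requirement of 5 UMIs kept out 0 Wild Type cells past the 0.1% threshold, and in PyMT only the cells at 0.112% and 0.111%. No doublets were removed; 0 of 40 Wild Type and 5 of 42 PyMT gated cells fell in the fraction of each library that scored highest against simulated doublets (5.24% and 8.67% of comparison cells did). Mitochondrial UMIs had a median of 1.33% in Wild Type gated and 0.354% in comparison cells, and 1.55% and 0.348% in PyMT, where 1 gated cell of 3889 UMIs was at 12.9%. What depth, doublets and mitochondrial RNA contributed to the results below was not tested. Sums over comparison cells of at least 10000 UMIs are given beside a few of them, and most stand without. Against such deep cells 468 of 8544 genes were higher in Wild Type and 2749 of 8491 in PyMT, where all comparison cells gave 1448 of 9312 and 3131 of 9187. Of the Wild Type deep comparison cells 18.6% fell in the fraction most like simulated doublets.

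Ms4a3 averaged 467 CPM in Wild Type gated against 48.4 in comparison cells, a log2 ratio of 3.27 (exact conditional 95% interval 3.11 to 3.43), and 622 against 43.2 in PyMT, 3.85 (3.71 to 3.99). Per cell the lowest, median and highest were 0, 462 and 1353 CPM in Wild Type and 0, 321 and 3280 in PyMT. A UMI was found in 36 of 40 Wild Type cells (90.0%) against 15.7% of comparison and 0.789% of B reference cells; with every cell thinned to 2500 UMIs the shares became 65.0%, 5.31% and 0 of 380 (upper 95% limit 0.966%). In PyMT 32 of 42 cells (76.2%, thinned 35.7%) had one, against 15.3% (thinned 5.50%) of comparison and 1.22% (0.733%) of B reference cells. In PyMT all 23 gated cells with high S100a8 and S100a9 had a Ms4a3 UMI, and 9 of the 19 others.

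Prss57 averaged 86.3 CPM against 11.7 in Wild Type, log2 2.88 (2.50 to 3.24), and 103 against 12.2 in PyMT, 3.07 (2.73 to 3.40), with a UMI in 26 of 40 and 22 of 42 gated cells. Both markers stayed above comparison cells of at least 10000 UMIs with 0.2% or more UMIs from mitosis genes (484 Wild Type and 889 PyMT cells). Ms4a3 was above by 1.93 and 2.61 and Prss57 by 1.94 and 2.49 on the log2 scale. The set is called deep cycling cells, though the limit lay near the median of all comparison cells (0.175% and 0.180%). Its median share of DNA replication UMIs was 0.0880% in Wild Type and 0.00804% in PyMT, against 0.155% and 0.223% in gated cells. In PyMT its median Mki67 was 0 CPM, so many of its PyMT cells may not have been in cycle.

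Across all genes with at least 50 UMIs over both sums, a gene was called when it differed at least 2-fold with the interval beyond 1-fold. In Wild Type 1448 of 9312 genes were higher in gated than comparison cells (15.5%) and 230 lower (2.47%). In PyMT 3131 of 9187 were higher (34.1%) and 403 lower (4.39%). The balance depends on the scaling: with trimmed mean of M-values scaling, which lowers every log2 ratio by 0.47 in Wild Type and 1.00 in PyMT, 562 were higher and 705 lower in Wild Type and 1305 and 1895 in PyMT, and median of ratios scaling gave 578 and 676, and 1337 and 1835. The median over measured genes was 0.28 in Wild Type and 0.44 in PyMT, where measured means at least 5 UMIs expected in the smaller sum. Of the genes called higher, 1137 were shared, 83.1% of the Wild Type calls and 36.6% of the PyMT calls; 127 were lower in both.

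**Figure D3:**
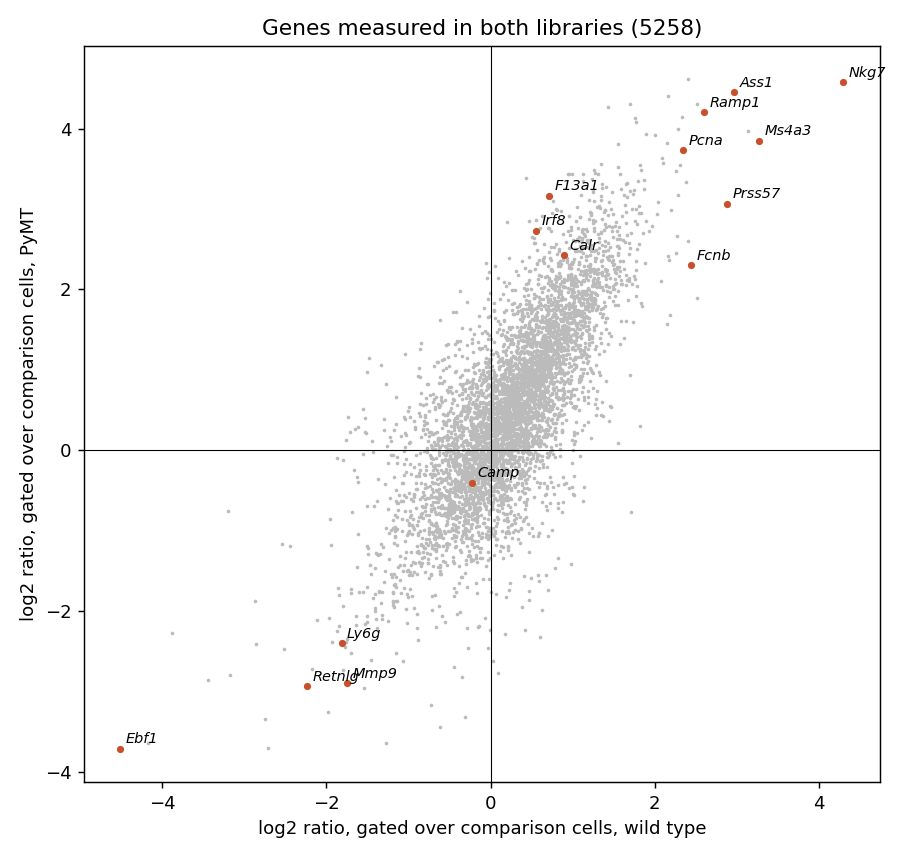
Each point is 1 of 5258 genes measured in both libraries, with its log2 ratio of gated to comparison cells in Wild Type (x axis) and PyMT (y axis); red points are labelled genes. Nkg7, Ms4a3 and Prss57 lie high in both libraries, Retnlg, Ly6g and Mmp9 low in both, and Irf8 and F13a1 high in PyMT.

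Apart from cell division genes, Nkg7, Cst7 and Mt1 were among the genes furthest above comparison cells in both libraries. Nkg7, a cytotoxic granule membrane protein also made by early granulocytes, was at 278 CPM in Wild Type gated against 14.1 in comparison cells, log2 4.30 (4.07 to 4.53), and 199 against 8.36 in PyMT, 4.58 (4.31 to 4.84). Cst7, the cathepsin inhibitor cystatin F, was at 57.9 against 0.939 CPM, 5.95 (5.28 to 6.63), and 64.1 against 1.46, 5.46 (4.93 to 5.98). A Cst7 UMI was present in 22 Wild Type cells and 18 PyMT cells. Natural killer cells also make Nkg7 and Cst7; their 10 listed markers, which include neither, summed to 4.73 CPM in Wild Type gated cells (3 of 10 detected) and 1.21 in PyMT (1 of 10), against 11.2 and 8.11 in comparison cells. The metal-binding Mt1 (4.14 and 4.07), the glutathione transferase Gstm1 (3.14 and 3.97) and the argininosuccinate synthase Ass1 (2.97 and 4.46) were also higher, as was Ramp1 (2.60 and 4.20), a receptor activity-modifying protein. Against the deep cycling comparison cells these differences were 3.16 and 3.58 for Nkg7, 5.13 and 4.85 for Cst7, 3.68 and 3.90 for Mt1, 2.67 and 3.50 for Gstm1, and 2.68 and 4.17 for Ass1.

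Other genes of the primary granule stage were a mixed group. Of 15 listed, 6 were higher in Wild Type (Ms4a3, Prss57, Srgn, Cst7, Nkg7 and Alas1, median 0.94), where 15.5% of all genes were. In PyMT 8 were higher (Ms4a3, Prss57, Cst7, Ctsc, Nkg7, Calr, Plac8 and Gusb, median 1.18), where 34.1% of all genes were. In either library 0 were lower. With trimmed mean of M-values scaling 5 and 6 were higher, against 562 of 9312 and 1305 of 9187 genes over all. Srgn, the granule proteoglycan serglycin, was at 330 against 93.4 CPM in Wild Type, log2 1.82, and at 489 against 397 in PyMT, 0.30 (0.16 to 0.44). Ctsc, the dipeptidyl peptidase that activates these proteases, was at 72.1 against 37.9 CPM in Wild Type, 0.93 (0.53 to 1.30), and 222 against 44.0 in PyMT, 2.34 (2.11 to 2.56). Its PyMT level came from the cells with low S100a8 and S100a9 (584 CPM) rather than the others (20.7 CPM).

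Of 11 granulocyte commitment transcription factors tested, 2 were higher in Wild Type (Cebpa and Gfi1) and 3 in PyMT (Cebpa, Gfi1 and Runx1), near or below the shares over all genes (15.5% and 34.1%). Cebpa was at 37.8 against 14.8 CPM in Wild Type, 1.35 (0.79 to 1.87), and 38.7 against 7.47 in PyMT, 2.37 (1.80 to 2.89); in PyMT all its UMIs were in cells with low S100a8 and S100a9 (11 of 19 cells) and 0 in the 23 others. Gfi1, which represses the monocyte programme, was at 27.2 against 9.24 and 21.8 against 4.80 CPM. Cebpe, the factor of the secondary granule stage, did not reach 2-fold, with 677 against 564 CPM in Wild Type and 488 against 370 in PyMT. The Wild Type calls of Cebpa and Kit (a log2 ratio of 1.45, interval 0.42 to 2.33) were lost under trimmed mean of M-values scaling, where the medians of this list (0.23 and 0.39 as reported) were -0.25 and -0.61 and 4 of its members were lower in PyMT. Of the stem and early progenitor list 3 of 8 tested genes were higher in Wild Type (Kit, Hlf and Cdk6) and 1 lower (Erg). In PyMT 3 of 6 were higher (Myb, Cdk6 and Lmo2), where 15.5% and 34.1% of all genes were higher in the 2 libraries. With trimmed mean of M-values scaling 1 was higher and 2 lower in each library, with medians of 0.18 in Wild Type and -0.65 in PyMT. That scaling gave 562 higher and 705 lower of 9312 genes over all in Wild Type, and 1305 and 1895 of 9187 in PyMT.

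Cell division genes were higher as a group. All 27 tested DNA replication genes were higher in gated cells of either library, with a median of 2.03 over the 24 measured in Wild Type and 4.14 over the 10 measured in PyMT. Pcna, the sliding clamp of DNA polymerase, was at 164 against 32.3 CPM in Wild Type, 2.35 (2.08 to 2.60), and 160 against 12.01 in PyMT, 3.73 (3.45 to 4.00); Mcm5, a subunit of the replicative helicase, stood at 2.52 and 4.30, and Uhrf1 at 2.52 and 4.38. The gated levels of Pcna differed little between the libraries (-0.04, -0.40 to 0.31), whereas the comparison cells were lower in PyMT (-1.43). Of 28 mitosis genes 16 were higher in Wild Type (median 1.15) and 27 in PyMT (2.16). The shares higher over all genes were 15.5% and 34.1%. With trimmed mean of M-values scaling 26 and 27 replication genes but 7 and 22 mitosis genes were higher. All genes then gave 562 of 9312 in Wild Type and 1305 of 9187 in PyMT. Mki67 had a UMI in 33 of 40 Wild Type gated cells (82.5%, thinned 25.0%) and 11.3% of comparison cells (thinned 4.35%), and in 22 of 42 PyMT cells (52.4%, thinned 11.9%) and 5.32% (thinned 1.69%); B reference cells were at 2.37% and 0.977%. Set against the deep cycling comparison cells, which were chosen on mitosis genes, 8 of 27 replication genes remained higher in Wild Type (median 0.83). In PyMT 26 of 26 did (2.53), while 5 of 28 mitosis genes were lower in Wild Type and 8 of 28 higher in PyMT. Across all genes this contrast gave 352 of 7326 higher and 131 lower in Wild Type, and 2144 of 6898 higher in PyMT. The PyMT mitosis count was near that share and is no result about these genes. The PyMT deep cycling cells had a median of 0.00804% replication UMIs, so the PyMT counts are no contrast with cells known to divide.

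Genes of protein synthesis were also higher, where 15.5% of all genes were higher in Wild Type and 34.1% in PyMT. All 28 cytosolic ribosomal protein genes were called in both libraries (medians 1.31 and 2.08), as were 12 of 22 ribosome biogenesis genes in Wild Type (1.13) and 21 of 22 in PyMT (2.75). Of 22 genes of protein folding in the endoplasmic reticulum, 8 were higher in Wild Type (0.87) and 19 in PyMT (1.81); Calr was at 156 against 83.8 CPM in Wild Type, 0.90 (0.63 to 1.15), and 290 against 54.0 in PyMT, 2.43 (2.23 to 2.62), with 24.6% of its PyMT UMIs in 1 cell. Of 32 nuclear oxidative phosphorylation genes only Atp5g1 was called in Wild Type (0.69), below the share over all genes, and 21 in PyMT (1.25). Of 12 mitochondrially encoded genes 8 and 11 were higher. These counts moved with the scaling. Under trimmed mean of M-values scaling 562 of 9312 genes over all were higher in Wild Type and 1305 of 9187 in PyMT. The ribosomal protein genes called were then 8 of 28 in Wild Type (median 0.83) and 16 of 28 in PyMT (1.08). The ribosome biogenesis genes were 2 and 18 of 22, the folding genes 3 and 10 of 22, and the mitochondrially encoded genes 0 and 5 of 12. The oxidative phosphorylation genes were 0 and 2 of 32, below the share over all genes in each library.

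Secondary granule genes lay below comparison level at the median, and most did not pass the call. Of 16 listed, Fcnb alone was higher in each library, while Ltf, Lcn2, Ltb4r1 and Itgb2l were lower in Wild Type (median of all 16, -0.60) and Ltf, Ltb4r1 and Itgb2l in PyMT (-0.79). The shares lower over all genes were 2.47% in Wild Type and 4.39% in PyMT. With trimmed mean of M-values scaling 9 were lower in Wild Type (median -1.07) and 14 in PyMT (-1.79), against 705 of 9312 and 1895 of 9187 genes over all. Fcnb, the ficolin of early granulocytes, was at 792 against 146 CPM in Wild Type, 2.44 (2.32 to 2.55), and 440 against 89.3 in PyMT, 2.30 (2.14 to 2.45). Camp, the cathelicidin, was at 54688 against 63905 CPM in Wild Type, -0.22, and Ngp at 26725 against 46380, -0.80. Ltf, lactoferrin, which appears late among these genes, was at 4054 against 10766 CPM in Wild Type, -1.41, and 3141 against 8664 in PyMT, -1.46.

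Late neutrophil genes were lower. Of 22 gelatinase granule and late genes 10 were lower in Wild Type (median -0.93) and 16 in PyMT (-1.75), and 0 were higher. The shares lower over all genes were 2.47% and 4.39%. With trimmed mean of M-values scaling 15 and 22 were lower, against 705 of 9312 and 1895 of 9187 genes over all. The PyMT sum mixes the 19 cells of low S100a8 and S100a9 with the 23 others. Mature neutrophil markers, S100a8 and S100a9 among them, summed to 25601 and 358966 CPM in these, and 452504 in comparison cells. What the mixture contributed was not tested. Retnlg was at 1255 against 5930 CPM in Wild Type, -2.24, and at 1826 against 13956 in PyMT, -2.93, where B reference cells stood at 1438. Mmp9, gelatinase B, was at 208 against 700 CPM, -1.75 (-1.97 to -1.54), and 87.0 against 648, -2.90 (-3.25 to -2.56). Ly6g, part of the Gr1 antigen used in the sort, was at 281 against 990 CPM, -1.82, and 153 against 810, -2.40, and had a UMI in 29 of 40 and 26 of 42 gated cells. Cxcr2, the chemokine receptor for exit from marrow, was at 48.5 against 111 CPM, -1.19, and 95.5 against 363, -1.93.

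**Figure D4:**
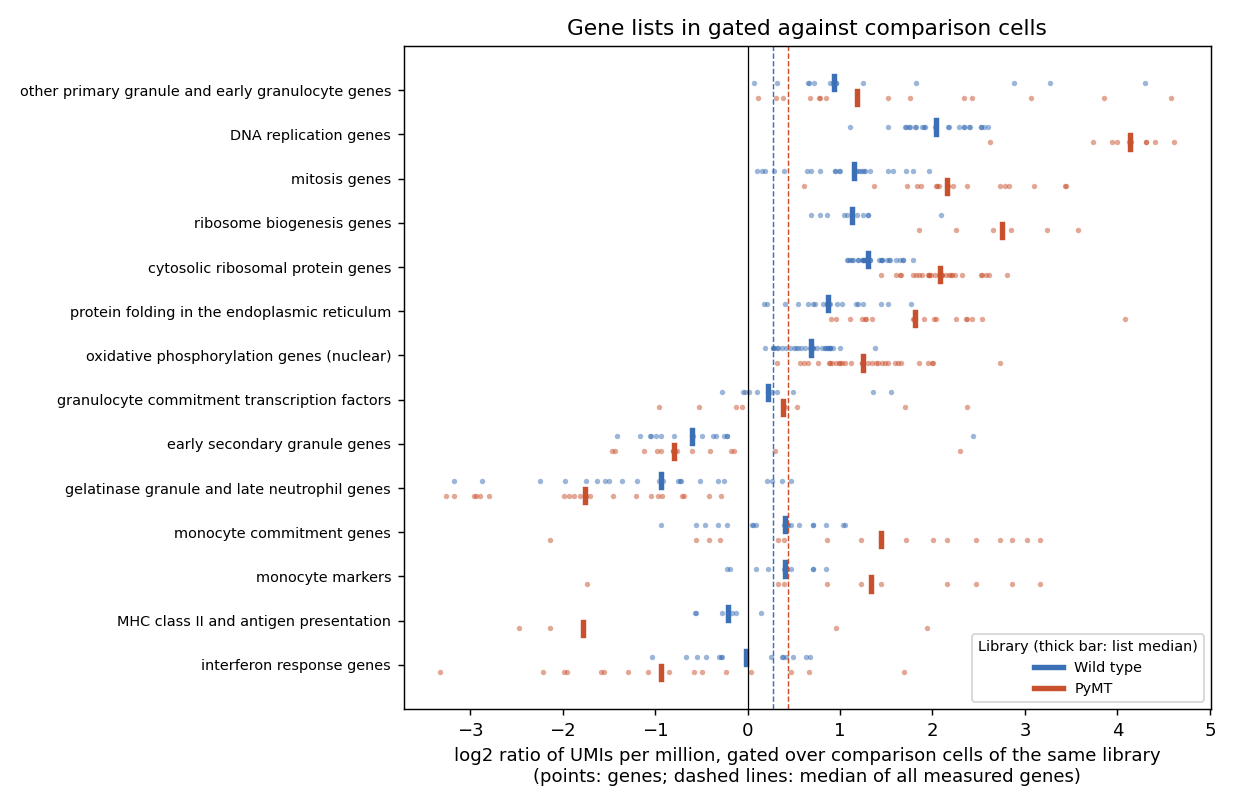
Log2 ratios of gated to comparison cells (x axis) for the measured members (points) of 14 gene lists (rows) with each list's median (thick bars), Wild Type in blue and PyMT in red; dashed lines mark the medians of all measured genes, 0.28 and 0.44. The medians of the replication genes lie at 2.03 and 4.14 and those of the gelatinase granule and late genes at -0.93 and -1.75.

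Monocyte genes were called more often in PyMT. Of 19 monocyte commitment genes tested, 2 were higher in Wild Type gated cells (Klf4 and Batf3; median 0.40) and 10 in PyMT (median 1.45), with Cd74 lower, where 15.5% and 34.1% of all genes were higher. With trimmed mean of M-values scaling 0 were higher and 2 lower in Wild Type (median -0.07), and 7 higher and 4 lower in PyMT (0.45). All genes then gave 562 higher and 705 lower of 9312 in Wild Type, and 1305 and 1895 of 9187 in PyMT. The counts of lower monocyte commitment genes were near those shares. The PyMT direction also rested on the cells of low 4-gene share: at a threshold of 0.5% the PyMT median of this list was -0.51 and that of the monocyte markers -0.12. Irf8, the factor that directs progenitors to monocytes, was at 46.1 against 31.4 CPM in Wild Type, 0.55 (0.05 to 1.01), and at 115 against 17.3 in PyMT, 2.73 (2.41 to 3.04). F13a1, a coagulation factor subunit made by young monocytes, was at 40.2 against 24.5 CPM, 0.71 (0.17 to 1.21), and 185 against 20.6, 3.17 (2.91 to 3.41). The 11 general monocyte markers summed to 2132 CPM in Wild Type gated and 1903 in comparison cells, and 3129 and 1758 in PyMT, with all 11 detected in each; 0 of 11 were higher in Wild Type and 6 of 11 in PyMT (4 with trimmed mean of M-values scaling).

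Within the PyMT gated cells most UMIs of the monocyte genes lay in 16 of the 19 cells with low S100a8 and S100a9, those with UMIs of both Ccr2 and F13a1; all 16 also had Irf8, and the other 3 had none. Because S100a8 and S100a9 split these cells, the contrast is a description with no test. Of 1733 genes tested 529 were higher and 127 lower in the 19 than in the 23 others, with a median of 0.57 over all. The former were higher for 11 of 13 monocyte commitment genes (median 3.43), 14 of 18 protein folding genes (1.27) and 24 of 28 ribosomal protein genes (1.27), and lower for 13 of 15 secondary granule genes (-2.64). Irf8 was at 317 against 1.88 CPM, Ccr2, the monocyte chemokine receptor, at 337 against 28.2, F13a1 at 479 against 20.7 and Lgals1, galectin 1, at 2248 against 47.1, whereas Camp was at 901 against 36438, with the B reference cells at 1154. Ms4a3 (688 against 586 CPM) and Prss57 (94.5 against 107) did not pass the call as sums, but the 3 cells without Irf8 held 174 of the 204 Ms4a3 and 25 of the 28 Prss57 UMIs of the 19. Per cell the Ms4a3 median was 0 CPM in the 19 and 514 in the 23 others, and Prss57 had a UMI in 5 of 19 and 17 of 23. The 19 PyMT cells were shallower than the 23, with a median of 13444 UMIs against 23302. The 2 Wild Type cells with low S100a8 and S100a9 both had UMIs of Irf8, Ccr2 and F13a1 as well. In Wild Type such UMIs were not confined to them. Of the 38 others 9 had both Ccr2 and F13a1 and 13 had Irf8, against 2 and 1 of the 23 in PyMT. Comparison cells of at least 10000 UMIs had both Ccr2 and F13a1 in 198 of 987 in Wild Type and 165 of 2216 in PyMT.

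The 3 PyMT cells with low S100a8 and S100a9 and no Irf8 or Ccr2 UMI differed from the rest. Of these, 2 were the cells at 4.43% and 1.997% 4-gene share, with 78 and 81 UMIs of Ms4a3, 27 and 20 of Camp and 2 of F13a1 each. The third had 12009 UMIs with 42 of Ctsg, 7 of Mpo, 1 of Prtn3 and 0 of Elane, and 380 of Mcpt8 and 947 of Prss34, proteases of basophils. It held all the gated Mcpt8 and Prss34 UMIs; Mcpt8 lies beside Ctsg on chromosome 14. Basophil and mast cell markers summed to 1905 CPM in PyMT gated cells (8 of 10 detected) and 108 in Wild Type (1 of 10, Hdc alone). Eosinophil markers summed to 268 and 179 CPM, and B cell markers to 31.4 and 15.4 against 8255 and 6044 in B reference cells. T cell markers summed to 18.1 and 3.55 CPM and NK cell markers to 1.21 and 4.73.

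Between the libraries, PyMT gated cells were higher than Wild Type gated cells for 118 of 2990 genes (3.95%) and lower for 71 (2.37%), with a median of 0.12. The 7 tested genes of a list known from neutrophils of tumour-bearing spleens were all higher (median 5.09); that list was chosen on these samples and gives no independent evidence. Ifitm1, an interferon-induced membrane protein, had 1048 CPM in the PyMT sum and 7.09 in the Wild Type sum, a log2 ratio of 7.21 (6.08 to 8.66), with a UMI in 41 of 42 and 4 of 40 cells. Wfdc17 was at 1627 and 137 CPM, 3.57 (3.29 to 3.85), and Il1b at 249 and 43.7, 2.51. In PyMT the B reference cells held 1205 CPM of Ifitm1, 1868 of Wfdc17 and 490 of Il1b, at or above the gated level. In the sums, expression by the gated cells therefore cannot be told apart from free RNA. The gated cells were deeper, with a median of 19101.5 UMIs against 3556.5 in B reference cells. How free RNA scales with depth was not tested. The gated and the B reference sums both include single cells with high values. For Wfdc17 the median and highest were 638 and 35647 CPM in PyMT gated and 500 and 35458 in B reference cells. For Ifitm1 they were 353 and 13880, and 340 and 14452. Against PyMT comparison cells the log2 ratios were -1.45 for Ifitm1 and -1.75 for Wfdc17, and against the deep cycling ones -0.01 and 0.09. Stfa2l1 rose from 5.91 to 259 CPM, 5.45 (4.21 to 7.09), with B reference cells at 169.

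Monocyte genes were higher in the PyMT sum but not in the cells with high S100a8 and S100a9. Lgals1 had 835 CPM in the PyMT gated sum against 168 in Wild Type, 2.31 (2.05 to 2.59), yet -1.20 (-1.91 to -0.55) between the 38 and the 23 cells with high S100a8 and S100a9. F13a1 (2.20 in all, -0.56 in these cells), Ctsc (1.62 and -1.69) and Ccr2 (1.04 and -1.19) had opposite signs in the same way. Among these cells 55 of 2389 genes were higher and 125 lower, and 6 of 10 monocyte commitment genes were lower (median -1.45). The replication genes did not follow this: 5 of 25 were higher in all PyMT gated cells and 3 of 21 in those with high S100a8 and S100a9, and 0 were lower.

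Of 5 antigen presentation genes tested, 3 were lower in PyMT gated cells (H2-Aa, H2-Ab1 and Cd74; median of the 5, -3.10), where 2.37% of all genes were lower. H2-Aa was at 36.3 CPM against 429 in Wild Type, -3.57 (-4.15 to -3.03), H2-Ab1 at 38.7 against 332, -3.10, and Cd74, the invariant chain, at 97.9 against 843, -3.11. In Wild Type 32.2% of the H2-Aa UMIs lay in 1 cell and 21 of 40 cells had any, and the gated sum was near that of the comparison cells (518 CPM). Comparison cells moved the same way by less (H2-Aa -1.37, Cd74 -1.53), and B reference cells, which make these proteins, did not (0.40 and 0.41). Rgcc, a cell cycle regulator, was at 50.8 against 197 CPM, -1.96 (-2.48 to -1.46), G0s2 at 53.2 against 208, -1.97, Mmp8 at 103 against 249, -1.28, and Camp at 23711 against 54688, -1.21; among the cells with high S100a8 and S100a9 Camp differed by -0.63 and Rgcc by -1.85. Thbs1, thrombospondin 1, was at 2.42 against 56.7 CPM, -4.55 (-7.64 to -2.62), on 2 PyMT UMIs. Ms4a3 (0.41) and Prss57 (0.25) did not reach the call between the libraries, with intervals of 0.22 to 0.61 and -0.22 to 0.72.

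Of 24 interferon response genes tested, 7 were lower and 1 higher in PyMT gated than comparison cells (median -0.94). In Wild Type 1 of 20 was higher and 0 lower (-0.01). Over all genes 4.39% were lower and 34.1% higher in PyMT, and 2.47% and 15.5% in Wild Type. With trimmed mean of M-values scaling 13 of 24 were lower in PyMT (median -1.94) and 2 of 20 in Wild Type (-0.49), and 0 were higher in either. All genes then gave 1895 of 9187 lower in PyMT and 705 of 9312 in Wild Type, so the Wild Type count was near that share. Isg15, an interferon-induced ubiquitin-like protein, was at 2.42 against 24.2 CPM in PyMT, -3.32 (-6.37 to -1.46), and Rtp4 at 13.3 against 52.5, -1.98 (-2.99 to -1.14). Between the libraries only 1 of the listed genes had enough UMIs in gated cells to be tested, and it was not called.

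Among 1726 genes compared, those whose share followed the 4-gene share most closely from cell to cell within both libraries (after thinning) were Calr, with Spearman's rho of 0.43 over 40 Wild Type cells and 0.39 over 42 PyMT cells, Neu1 (0.44 and 0.39), Ndufa9 (0.37 and 0.39), Srgn (0.33 and 0.63) and Hexa (0.38 and 0.30). Calr encodes calreticulin, an endoplasmic reticulum chaperone, and Neu1 and Hexa encode lysosomal enzymes. The cells of a library share their library and pool of mice, so these values describe the 82 cells and are weak.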

How the data were processed

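Droplet 3′ libraries (10x Genomics) of splenic CD11b+ Gr1+ cells were analysed, 1 per group. The values are UMI counts per gene and cell as the authors deposited them; Cell Ranger 2.1.0 and build mm10 are named in the submitters' processing notes, and the selection of cells before deposit is not described there. The members and gene lists were chosen with earlier results of these data known. Counts were summed per library and cell group and scaled to CPM, with exact Poisson and exact conditional 95% intervals (Python 3.11.15, scipy 1.17.1). The step was run on simulated Poisson sums without variation between cells. That run therefore does not cover sums held largely by 1 cell. Genes needed 50 UMIs over both sums. A call needed a 2-fold difference with its interval beyond 1-fold, the genes of the gate left out; list medians used members with at least 5 expected UMIs in the smaller sum, a limit chosen after seeing the data. Named genes were the highest and lowest by the interval bound nearest 0, up to 4 per list, the 6 markers and the 10 most like the 4-gene share; Irf8, Cebpe, Mki67, Ngp, Cd34 and the called members of short lists that fall outside this rule were chosen after their values were seen. No cell was removed in the values reported; alternatives are in the closing section. With 1 library per group no p-value is given.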

Additional observations from a re-analysis of the deposited data

Results flagged for a closer look

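Of 8881 genes tested in both libraries, 4 were called lower in gated than comparison cells in Wild Type and higher in PyMT. These calls rested on few gated UMIs. In Wild Type and PyMT these were 2 and 9 for Zfp746, 10 and 27 for Mesdc1, 4 and 12 for Med13, and 6 and 14 for Vps13b. The log2 ratios were -1.931 and 1.553 for Zfp746, -1.049 and 1.192 for Mesdc1, -1.481 and 1.148 for Med13, and -1.332 and 1.064 for Vps13b, in Wild Type and PyMT. Trimmed mean of M-values scaling lowers PyMT log2 ratios by 1.00, which takes all of these PyMT ratios below the 2-fold limit. With 1 library per group the difference between the libraries was not tested.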

How the results depend on the processing

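The PyMT minus Wild Type difference in the gated share was -0.270 percentage points as reported. Thresholds of 0.2% gave shares of 0.437% and 0.175%, and of 0.5% gave 0.127% and 0.0983% (difference -0.0292). The difference turned at 1% (0.0728% and 0.0874%, 0.0145) and with thinning and a minimum of 3 instead of 5 UMIs together (PyMT 0.907%, 0.233). Genes higher and lower than comparison cells numbered 1448 and 230 in Wild Type and 3131 and 403 in PyMT, and 118 and 71 between the libraries. At 0.5% Wild Type lower calls were 152 and calls between the libraries 58 and 27, and at 1% they were 850 and 120 in Wild Type and 57 and 18 between the libraries. Trimmed mean of M-values scaling gave 562 and 705 in Wild Type and 1305 and 1895 in PyMT, median of ratios 578 and 676, and 1337 and 1835. With at least 200 UMIs Wild Type higher calls were 955 and calls between the libraries 28 and 13; with at least 10 UMIs the latter were 304 and 269. Equal weight per cell gave 3027 and 593 in Wild Type and 814 lower in PyMT. Thinning gave 886 and 100, 1358 and 211, and 27 and 6. A 1.5-fold threshold gave 2206 and 404 in Wild Type, 614 lower in PyMT, and 370 and 186 between the libraries. Of alternatives added after seeing the data, comparison cells of at least 10000 UMIs gave 468 higher in Wild Type and 241 lower in PyMT; deep cycling ones gave 352 and 131, and 208 lower in PyMT; gated cells with high S100a8 and S100a9 alone gave 1745 higher in PyMT, and 55 and 125 between the libraries. At 0.5% these log2 values turned sign: Hbb-bs in Wild Type 0.32, Fn1 in PyMT -2.21, the PyMT medians of monocyte commitment genes -0.51 and monocyte markers -0.12, and between the libraries Ceacam10 -1.80, Slfn1 -1.15, Apoe 0.21, Ms4a6c -0.34, Hmox1 -0.51, Hspa1a 0.043 and monocyte commitment genes -0.25. Thinning turned Ceacam10 (-0.33) and Ndufa9 (-0.070) between the libraries, and counting members at 0 as 3 UMIs turned the PyMT median of antigen presentation genes (0.33). Apart from fewer genes or cells entering some of these, the cause was not tested. No paired analysis was possible because each group has 1 library. The small number of gated cells and the pooling of mice limit all values; intervals cover counting error only.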
